A study of Homo sapiens with 22 samples.

Results

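The response of PSF-bound RNA to androgen was measured in 6 PSF-RIP libraries, taken from the 22 samples of the series by their labels. PSF-RIP is RNA immunoprecipitation followed by sequencing, in which RNA is recovered from a lysate together with the protein PSF (gene SFPQ) by an antibody. The 6 libraries are 1 vehicle and 1 DHT library from each of 3 human prostate cancer cell lines: LNCaP, 22Rv1 and LTAD. The vehicle was ethanol, and DHT (dihydrotestosterone, the potent natural androgen) was given at 10 nM for 24 h. All cells, vehicle and DHT alike, had first spent 3 days in phenol red-free medium with 2.5% charcoal-stripped serum, which is low in steroids. LTAD cells were also cultured in stripped serum before that, whereas LNCaP and 22Rv1 cells were grown in full serum. What LTAD stands for is not given. For each gene symbol 1 transcript was kept, 12868 genes had enough reads to test, and the text describes the 131 that passed the test and moved the same way in all 3 lines. The 6 input libraries of the same lines and treatments, sequenced without immunoprecipitation, were used for comparison. Each line and treatment has 1 library, so the 3 lines are the replicates of the DHT effect. No label says that libraries came from separate cultures, and p-values measure only the spread between these libraries, which may be technical. An immunoprecipitation with a control immunoglobulin was not analysed here.

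PSF is a nuclear protein of the DBHS family, with NONO and PSPC1, that binds RNA and takes part in transcription, splicing and the paraspeckle, a nuclear body built on the long noncoding RNA NEAT1. In prostate cells androgens such as DHT act on the transcription of genes of secretion, lipid metabolism and growth. LNCaP is androgen-responsive, and 22Rv1 comes from a xenograft that regrew after castration. RNA recovered with PSF can rise because a transcript becomes more abundant or because more of it is bound, and PSF-RIP alone cannot tell these apart. Nor can fewer cells that make a transcript be told apart from less of it per cell.

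The PSF-RIP libraries held 4641602 to 10439461 mapped reads and the inputs 1073228 to 3014049. The share of intronic reads on the chosen transcripts was lower after DHT than after vehicle in each line. It went from 22.7% to 19.1% in 22Rv1 and stood at 17.1% in LNCaP and 12.5% in LTAD after DHT. Luminal prostate markers, such as KRT8, KRT18, HOXB13 and FOXA1, were present in every library, with a summed level of 957 to 1300 RPKM (reads per length and depth) after vehicle and 1280 to 1910 after DHT. KRT8, KRT18 and FOLH1 of this list are themselves among the genes called below. The basal list summed to 3.35 to 6.61 and 4.54 to 5.07, the stromal list to 8.19 to 13.7 and 8.15 to 13.7, the leukocyte list to 2.16 to 12.9 and 2.55 to 5.14, and the endothelial and red cell list to 0.368 to 9.16 and 0.636 to 10.4. TP63, PTPRC and PECAM1, which define basal cells, leukocytes and endothelium, had 1 read each over the 6 libraries. Other members of these lists had more reads, such as ITGB4 (557) and LAMB3 (109) of the basal list and CD68 (220) of the leukocyte list. VWF (99) and HBA2 (60) did so in the endothelial and red cell list. The neuroendocrine list summed to 38.0 to 94.8 after vehicle and 31.7 to 76.6 after DHT.

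DHT changed a small set of PSF-bound RNAs in the same direction in all 3 lines. Of 12868 genes tested, 132 passed an adjusted p of 0.05 in edgeR's quasi-likelihood test with line as a block (1.03% called), and 131 of them had the same sign in LNCaP, 22Rv1 and LTAD (1.02%). Of the 131, 93 rose (median log2 change 1.08) and 38 fell (median −0.996), against a median of −0.01 over all tested genes. Among the 12868 genes, 0.73% were called higher and 0.295% lower. A change past 2-fold was fitted for 55 of the genes that rose and 19 of those that fell. The same sign in 3 lines is common by itself: 42.4% of tested genes had it whether called or not. In 126 of the 131 the exact 95% interval of the ratio of reads, which covers counting error only, lay on the fitted side of 1 in each line. The 131 were chosen on these same reads, so this count is not separate support. The share over all tested genes was not computed. The 3 DHT and 3 vehicle values did not overlap at all for 52 of the 131 genes, against 524 of the 12868 tested genes (4.07%). For the other members at least 1 vehicle value lay within the range of the DHT values or beyond it. The contrast with all tested genes is not separate support either, since the 131 were chosen on these same libraries.

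**Figure D1:**
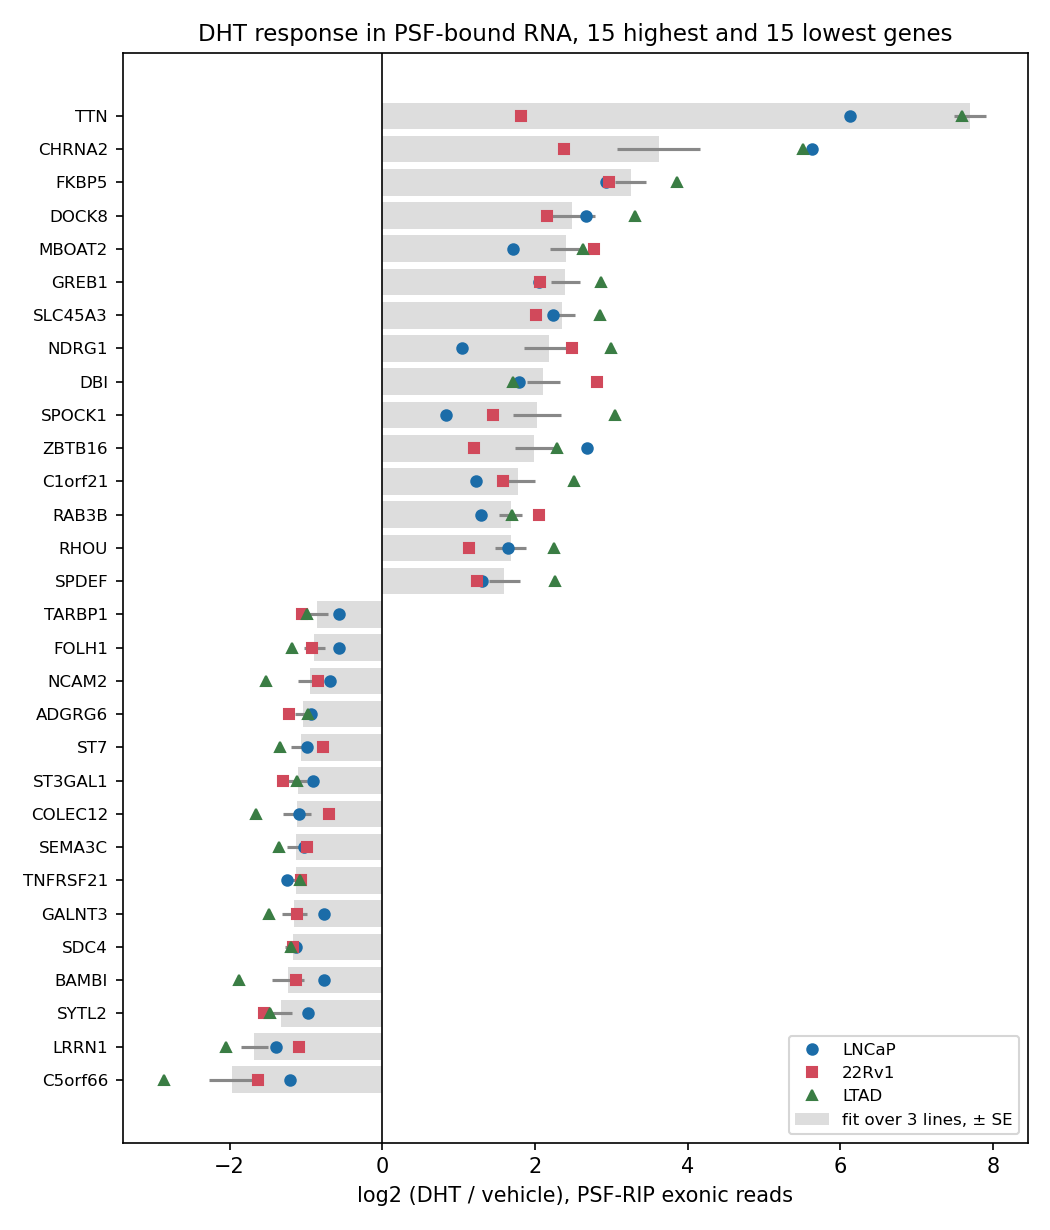
The log2 ratio of DHT to vehicle in PSF-RIP is plotted for the 15 highest and 15 lowest called genes at or above the median expression, with symbols for each line and grey bars for the fit over 3 lines ± SE. All points of a gene lie on the same side of 0, and the lines lie closer together for SDC4 and TNFRSF21 than for TTN and CHRNA2.

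Of 10 androgen-induced genes of signalling and co-chaperones tested, 5 were called and all 5 rose. FKBP5, a co-chaperone of steroid receptors (hg19 chr6:35541362-35656692, minus strand), went from 60.9 to 465 CPM (reads scaled to counts-per-million of the TMM-adjusted library total) in LNCaP, from 284 to 2220 in 22Rv1 and from 71.9 to 1050 in LTAD. The lowest DHT value lay above the highest vehicle value, and the fitted log2 change was 3.26 ± 0.20 (edgeR adjusted p = 0.00218). Each ± gives an SE derived from the edgeR test statistic of the fit, not the spread between the 3 lines. GREB1, a regulator first described in hormone response, went from 24.0 to 101 in LNCaP, from 7.04 to 30.5 in 22Rv1 and from 22.4 to 166 in LTAD. Its log2 change was 2.40 ± 0.19 (edgeR adjusted p = 0.00558), and here too every DHT library was above every vehicle library. STK39, a kinase that acts on ion cotransporters, rose by 1.37 ± 0.11, with 1.46, 1.19 and 1.44 in LNCaP, 22Rv1 and LTAD, a nearly even response. NDRG1, a stress and differentiation gene, rose by 2.19 ± 0.33, with 1.05 in LNCaP and 2.99 in LTAD. INPP4B, a phosphoinositide phosphatase, rose by 2.06 ± 0.28 from low levels of 2.22 to 6.07 CPM after vehicle.

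**Figure D2:**
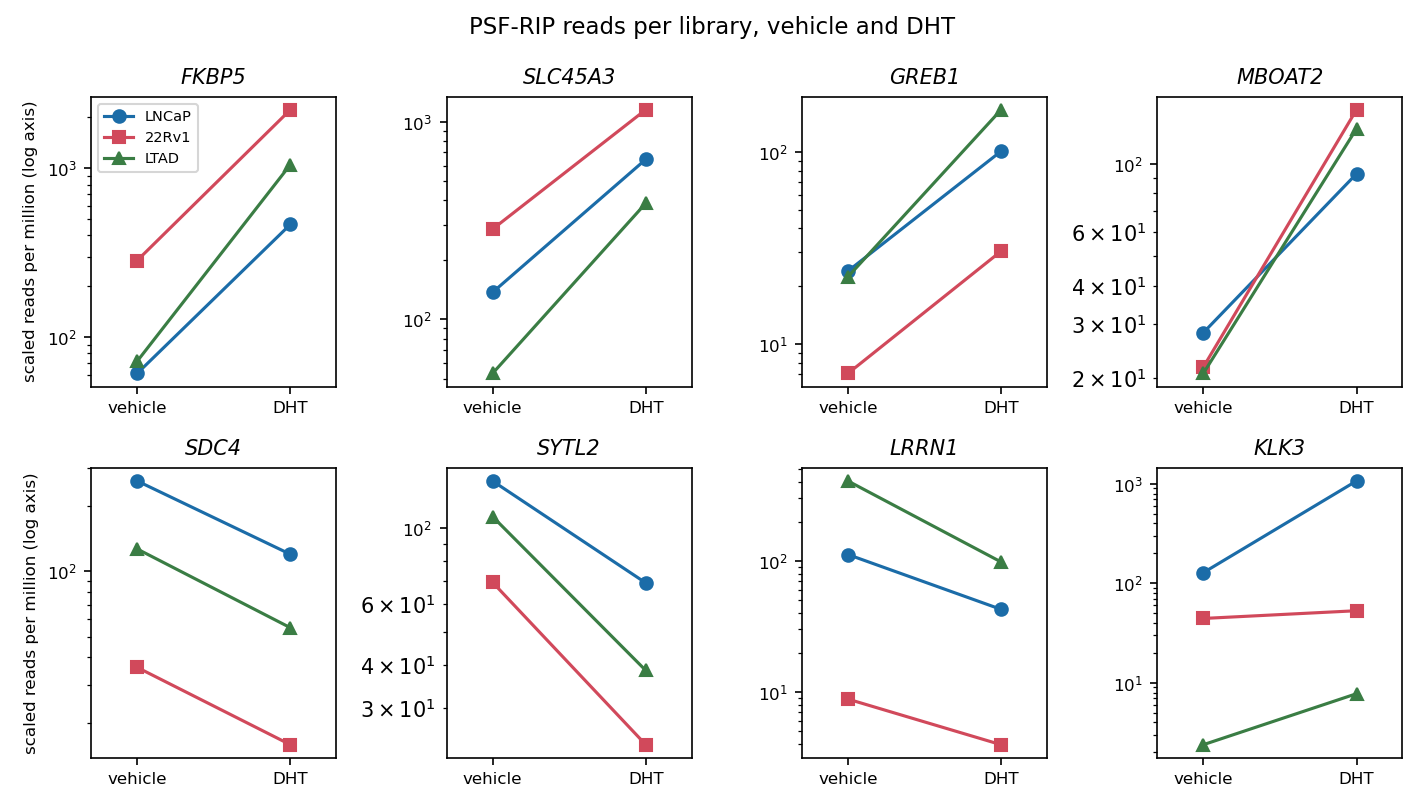
CPM (log axis) is plotted for each PSF-RIP library, with a line joining the vehicle and DHT library of a cell line. FKBP5, SLC45A3, GREB1 and MBOAT2 rise and SDC4, SYTL2 and LRRN1 fall in each line, while KLK3 rises from 128 to 1070 in LNCaP and only from 44.4 to 53.1 in 22Rv1.

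Among transporters, SLC45A3 (prostein, a prostate-specific membrane transporter; hg19 chr1:205626981-205649630) went from 137 to 645 CPM in LNCaP, from 286 to 1150 in 22Rv1 and from 53.3 to 387 in LTAD. Its log2 change was 2.36 ± 0.17 (edgeR adjusted p = 0.00449), the third smallest p of the set after TTN and FKBP5. It was the only called gene of the 5 transporters and metalloreductases tested. Its neighbour on the same strand, ELK4, an ETS transcription factor, rose by 0.83, with 0.83, 0.69 and 0.97 in LNCaP, 22Rv1 and LTAD. The 2 transcripts lie 25.0 kb apart with no other tested gene starting between them.

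Some genes of lipid metabolism rose, but most were not called. Of 40 sterol and fatty acid genes tested, 7 were called and all rose (ELOVL5, ACSL3, FASN and ACLY for fatty acids; HMGCS1, FDFT1 and IDI1 for sterols), and the median of the list was 0.23. ACSL3, which activates long-chain fatty acids, went from 255 to 644 CPM in LNCaP, from 214 to 535 in 22Rv1 and from 221 to 937 in LTAD (log2 1.58 ± 0.17). FASN, the fatty acid synthase, went from 1380 to 2680, from 893 to 2570 and from 967 to 1750 in LNCaP, 22Rv1 and LTAD (1.11 ± 0.16). Neither gene's groups overlapped. ELOVL5, an elongase of polyunsaturated chains, had almost the same log2 change in each line, with 1.10, 1.00 and 1.02. ACLY, which makes acetyl-CoA from citrate, rose by 0.70 ± 0.12. The 3 called sterol genes had ranges over the lines of 0.08 to 0.16: HMGCS1, which makes the precursor of mevalonate, rose by 0.83 ± 0.10, FDFT1 (squalene synthase) by 0.68 ± 0.10 and IDI1 (isoprenoid isomerase) by 0.58 ± 0.10. SQLE (squalene epoxidase) had a value of 0.24 and was not called. The regulators SREBF1 and SREBF2 were at 0.05 and 0.08. The androgen-induced list adds 2 lipid genes, MBOAT2 and DBI. MBOAT2, a lysophospholipid acyltransferase, rose by 2.41 ± 0.21, with 1.71 in LNCaP, 2.77 in 22Rv1 and 2.63 in LTAD. DBI, which carries acyl-CoA, rose by 2.11 ± 0.21 with 1.79 in LNCaP, 2.81 in 22Rv1 and 1.71 in LTAD.

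Of 61 androgen-induced genes tested, 22 were called and all 22 rose, with a median log2 change of 1.04 over the list. Of the 61, 47 were above 0 in each line, against 20.3% of all tested genes. The list was drawn up with earlier results of these data known, so this contrast is not separate support. The list holds 8 tested transcription regulators, and 4 of them were called. ZBTB16, a zinc finger repressor, went from 15.1 to 98.8 CPM in LNCaP, from 67.9 to 156 in 22Rv1 and from 24.2 to 120 in LTAD (1.99 ± 0.26). SPDEF, an ETS factor of secretory epithelium, rose by 1.60 ± 0.20. MAF, a leucine zipper factor, rose by 3.61 ± 0.45 from 8 to 11 reads per vehicle library. TSC22D1, a leucine zipper protein of the TGF-beta response, rose by 1.42 ± 0.23, with 0.60 in LNCaP and 1.85 in LTAD. Of 12 trafficking and cytoskeleton genes 5 were called: RAB3B (secretory GTPase; 1.68 ± 0.15), HOMER2 (scaffold; 1.23 ± 0.17), KRT8 (1.16 ± 0.16) and KRT18 (1.02 ± 0.16), the paired keratins of luminal epithelium, and RAB4A (recycling GTPase; 0.76 ± 0.11). Of 8 glycosylation and secretion genes, SORD (sorbitol dehydrogenase; 1.19 ± 0.16) and SEC24D (coat of secretory vesicles; 1.00 ± 0.14) were called, and of 4 polyamine genes SMS (spermine synthase; 0.94 ± 0.14).

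The kallikreins, the best-known androgen targets of the prostate, are not among the 131. None of 6 kallikreins and secreted proteases was called, although all 6 were above 0 in each line. In the inputs 3 of the 5 tested were called higher: KLK2 (2.06; edgeR adjusted p = 0.0101), KLK4 (0.94; 0.0478) and TMPRSS2 (2.50; 0.00575). The fitted log2 changes of KLK2 and KLK4 in PSF-RIP were of similar size, at 2.06 and 1.04 (edgeR adjusted p = 0.105 and 0.0788). In PSF-RIP the median of the 6 genes was 2.36 in LNCaP, 1.44 in LTAD and 0.48 in 22Rv1. KLK3 (prostate-specific antigen) went from 128 to 1070 CPM in LNCaP, from 44.4 to 53.1 in 22Rv1 and from 2.39 to 7.78 in LTAD, and the fit gave 1.76 ± 0.52 (edgeR adjusted p = 0.153). TMPRSS2, a membrane protease, had log2 changes of 3.64 in LNCaP, 0.69 in 22Rv1 and 3.65 in LTAD (adjusted p = 0.0869). PMEPA1, an inhibitor of TGF-beta signalling, had 2.76, 0.42 and 2.72 in the same order. Of the 39 androgen-induced genes not called, 15 were above 1 in both LNCaP and LTAD and below 1 in 22Rv1, and 3 were above 1 in 22Rv1 and below 1 in LNCaP. With 1 library per line and treatment, the difference between lines could not be tested. In 22Rv1 vehicle cells, PMEPA1 stood at 1520 CPM against 57.0 in LNCaP and 95.1 in LTAD.

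The largest fitted change among the 131 belonged to TTN, the giant muscle protein titin. TTN had 18 reads after vehicle and 4846 after DHT in LTAD, 1 and 148 in LNCaP, and 0 and 4 in 22Rv1. Most of its reads came from the LTAD library with DHT. The fitted log2 change was 7.70 ± 0.21 (edgeR adjusted p = 9.3e-06), although the lines differed widely, with 6.12 in LNCaP, 1.82 in 22Rv1 and 7.59 in LTAD. In LNCaP the ratio of scaled reads was 179, with an exact 95% interval from 31.6 to 7100, and in 22Rv1 the exact 95% lower limit of the ratio was 1.11. CHRNA2, a nicotinic receptor subunit, went from 0.698 to 52.2 CPM in LNCaP, from 77.7 to 406 in 22Rv1 and from 1.71 to 94.1 in LTAD (3.62 ± 0.54), so 22Rv1 started higher than LNCaP ended. DOCK8, a guanine nucleotide exchange factor, rose by 2.49 ± 0.30, with 0 and 7 reads in LNCaP, where the exact 95% lower limit of the ratio was 1.74. SPOCK1, a proteoglycan, rose by 2.03 ± 0.31, with 2 and 4 reads in LNCaP, a ratio of 2.41 whose exact interval of 0.346 to 26.7 includes 1. Under 10 reads in a library were found for 14 of the 131 genes, which limits what a single line shows for them.

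CTBP1-AS, a noncoding RNA antisense to CTBP1 that is known as androgen-responsive and as a partner of PSF, was the single called gene without the same sign in all lines. It had 79 and 212 reads in LNCaP, 17 and 169 in LTAD, and none in either 22Rv1 library, where a count of 0 allows up to 3 reads. Its log2 change was 2.17 ± 0.31 (edgeR adjusted p = 0.0382), 1.68 in LNCaP and 2.84 in LTAD, and its intronic reads changed by 2.74 (adjusted p = 0.0013). It was 1 called gene of 27 long noncoding RNAs tested, whose median was −0.28. Of the 27, 12 were below 0 in each line, against 22.1% of all tested genes. NEAT1 had −0.41 ± 0.11 (adjusted p = 0.138), with −0.54, −0.26 and −0.41 in LNCaP, 22Rv1 and LTAD. MALAT1, a nuclear noncoding RNA, had −0.07 ± 0.18. The mRNA of PSF itself, SFPQ, was at 424 and 420 CPM in LNCaP, 310 and 332 in 22Rv1 and 333 and 345 in LTAD, and NONO and PSPC1 had 0.21 ± 0.11 and 0.18 ± 0.13. None of the 3 was called.

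The 38 genes that fell include enzymes, receptors and adhesion proteins of the cell surface. SDC4, a heparan sulfate proteoglycan (hg19 chr20:43953929-43977064), went from 262 to 120 CPM in LNCaP, from 36.0 to 15.8 in 22Rv1 and from 127 to 54.9 in LTAD. Its log2 changes of −1.12, −1.17 and −1.20 are nearly equal, with a fit of −1.17 ± 0.10 (edgeR adjusted p = 0.00584), although the levels of the groups overlap. TNFRSF21, a death receptor, had −1.25, −1.07 and −1.08, a range of 0.18 over the lines against 0.07 for SDC4. SYTL2, a Rab27 effector of vesicle docking, went from 137 to 69.3 in LNCaP, from 69.6 to 23.5 in 22Rv1 and from 108 to 38.6 in LTAD (−1.33 ± 0.14). All 3 of its DHT values were below all 3 vehicle values by a small gap. LRRN1, a leucine-rich repeat protein, changed by −1.68 ± 0.18 and most in LTAD, from 408 to 98.2.

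Of 11 androgen-repressed genes tested, 3 were called and all 3 fell, with a median of −0.89 over the list. Of the 11, 8 were below 0 in each line, against 22.1% of all tested genes. This list too was drawn up with earlier results of these data known, so the contrast is not separate support. The highest fitted value in the list was 0.84. UGT2B15, which conjugates DHT with glucuronic acid for disposal, had 443 and 106 reads in LNCaP, 59 and 7 in 22Rv1 and 233 and 120 in LTAD (−1.63 ± 0.19; edgeR adjusted p = 0.0143). It has close paralogs, and only uniquely mapped reads were counted, so its count is less certain. SEMA3C, a secreted guidance factor, changed by −1.13 ± 0.12, with −1.02, −0.99 and −1.36. FOLH1, the prostate-specific membrane antigen, changed by −0.89 ± 0.13, from 338 to 227 CPM in LNCaP, 181 to 95.3 in 22Rv1 and 112 to 48.9 in LTAD. Other named genes that fell were BAMBI (a decoy receptor of the TGF-beta family; −1.23), ADGRG6 (an adhesion receptor; −1.04), COLEC12 (a scavenger receptor; −1.12), NCAM2 (a neural adhesion molecule; −0.95) and TARBP1 (an RNA methyltransferase; −0.86). ST7, whose function is little known, had −1.06. The O-glycan enzymes GALNT3 and ST3GAL1 fell by 1.15 and 1.11 on the log2 scale. ST3GAL1 was the most abundant in reads of those that fell, from 2560 to 1360 CPM in LNCaP.

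At hg19 chr5 a pair of overlapping transcripts on opposite strands fell together. C5orf66 (134368970-134680370, plus strand) went from 194 to 83.7 CPM in LNCaP, from 9.39 to 2.80 in 22Rv1 and from 115 to 15.4 in LTAD (−1.96 ± 0.31). PITX1 (134363424-134369964, minus strand), a homeobox gene, had −0.63, −0.67 and −0.94 in LNCaP, 22Rv1 and LTAD (−0.76 ± 0.11). C5orf66 had the lowest fitted change of the 131. The files list antisense reads apart from sense reads, but counts where such transcripts overlap, as for KRT8 and KRT18 too, are less certain.

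The size of the shared response is given here by line, with no test between lines. Among the genes that rose, the median log2 change was 0.94 in LNCaP, 1.11 in 22Rv1 and 1.19 in LTAD. Among those that fell, it was −0.86, −0.93 and −1.07. LTAD had the largest change for 71 of the 131 genes, 22Rv1 for 35 and LNCaP for 25. The lines were within 0.5 of each other on the log2 scale for 63 genes and more than 1 apart for 22. All 3 lines were past 2-fold for 37 genes, 29 of which rose. Over all tested genes, Pearson's r between the log2 changes of LNCaP and 22Rv1 was 0.28, of LNCaP and LTAD 0.26 and of 22Rv1 and LTAD 0.39, across genes, which are not independent. Leaving out 1 line changed the number called: 173 without 22Rv1, 480 without LNCaP and 197 without LTAD, of which 81, 130 and 100 were among the 132. Among the 131 genes, 70 remained called whichever line was left out. With no line block, none of the 12868 tested genes was called in edgeR, and 116 of these 12868 were at an unadjusted p under 0.05.

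The input RNA changed the same way. Of the 131 genes, 121 could be tested in the inputs, all 121 had the same sign there, and 118 had it in each line. In the inputs 1.32% of 10677 genes were called, 0.871% higher and 0.45% lower, and 1.26% were called with the same sign in all lines, a pattern that 33.0% showed whether called or not. There 77 of the 121 were called, 54 higher and 23 lower, and all with the sign of the PSF-RIP change. Of the genes called with the same sign in all lines, those 77 are 58.8% of the PSF-RIP set and 57.0% of the 135 in the inputs. FKBP5 had log2 changes of 3.26 in PSF-RIP and 3.11 in input, SLC45A3 2.36 and 2.42, SDC4 −1.17 and −1.13, and SYTL2 −1.33 and −1.43. Over the 10659 genes tested in both, Pearson's r was 0.71 across genes.

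**Figure D3:**
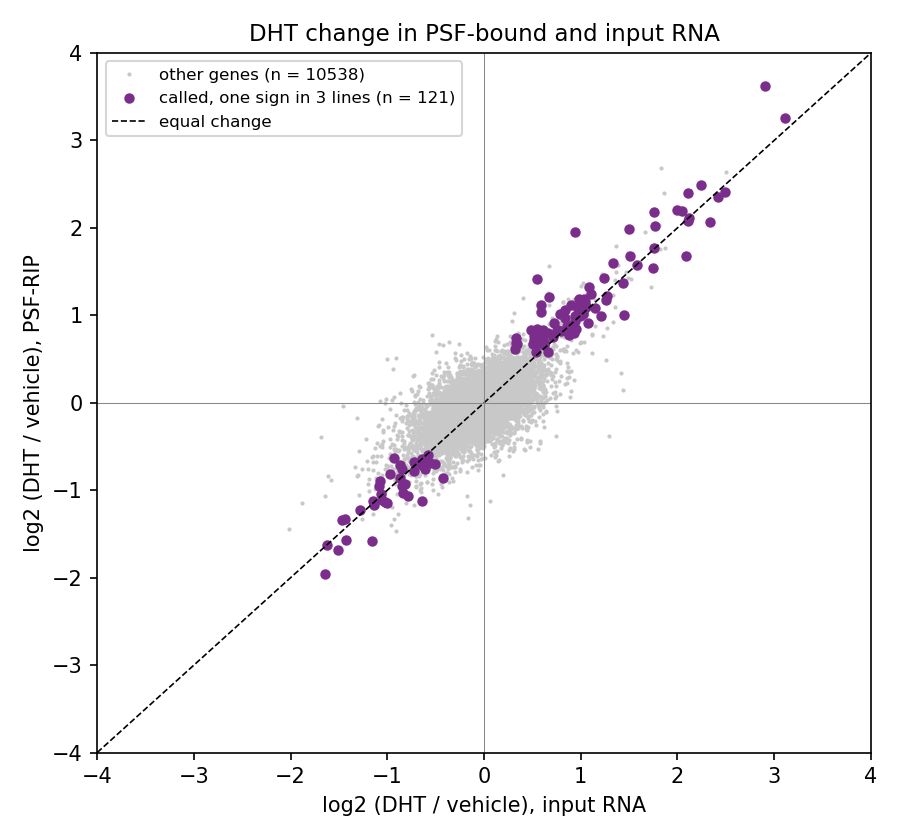
The log2 ratio of DHT to vehicle in PSF-RIP is plotted against that in input RNA, with called genes in purple, other genes in grey and a dashed line where both are equal. The 121 called genes tested in both lie near the dashed line and none lies in a quadrant where the signs differ.

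No gene passed the main test for a DHT response in PSF-RIP that differed from that in input. That test did not pair the PSF-RIP and input libraries of the same line and treatment. The test of the difference, 1 model over the 12 libraries, called 0 of 13366 genes (0.0%) in edgeR, with 221 at an unadjusted p under 0.05, and DESeq2 also called 0, with 38. Every member had an unadjusted p above 0.05, which does not show that the responses were equal. The median difference (PSF-RIP minus input, log2) was 0.07 for the genes that rose and −0.11 for those that fell, and 122 of the 131 were within 0.5 of equal change. For FKBP5 it was 0.10, with a 95% interval of −0.56 to 0.75, for SLC45A3 −0.11 (−0.66 to 0.45), for ELOVL5 −0.02 (−0.36 to 0.31) and for SDC4 −0.08 (−0.55 to 0.39). In simulated counts this test recovered 42% of differences of 1 on the log2 scale. The 5 genes with the smallest p, all at an adjusted p of 1.00, were COASY (−0.72), SUZ12P1 (1.38), MIR6740, ALG8 (−0.93) and UBE2MP1 (0.75), none of which is among the 131. With the libraries also paired within line and treatment, 11 genes were called, 6 with a higher and 5 with a lower log2 change in PSF-RIP, and none was among the 131. The 5 lower were MT-ND6 (−0.91; edgeR adjusted p = 6.9e-13), ALG8 (−0.93), ELP2 (−0.77), COASY (−0.72) and MT-ND5 (−0.59). The 6 higher were SUZ12P1 (1.38), HIST1H2BN (0.79), UBE2MP1 (0.72), UQCRB (0.66), PPP1R16A (0.55) and RPLP1 (0.48). In that fit 13 of the 131 (9.92%) were at an unadjusted p under 0.05, against 5.99% of tested genes, and RAB3B had the smallest, with a difference of −0.44 (−0.69 to −0.20; adjusted p = 0.175). The interval for FKBP5 narrowed to −0.19 to 0.32 around 0.07, and that for SDC4 to −0.42 to 0.16 around −0.13. The paired fit left 2 residual degrees of freedom and estimated the spread as shared across genes, so its intervals use the normal distribution. The part of this in the narrowing was not tested.

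Reads within introns, a second measure in the same libraries that comes mainly from unspliced RNA, gave the same directions. In 11323 genes with enough intronic reads, 63 were called (0.556%), of which 55 rose (0.486%) and 8 fell (0.0707%). Introns could be tested for 121 of the 131 genes, 118 had the same sign in their introns and 99 had it in each line. Intronic calls were made for 34 of 84 genes that rose and for 3 of 37 that fell. The intronic log2 change was 2.79 for FKBP5, 2.08 for SLC45A3, 2.67 for MBOAT2 and 3.19 for CHRNA2, close to the exonic values. For C5orf66, SYTL2 and UGT2B15, the called genes that fell, it was −1.33, −1.26 and −1.79. KRT8 and KRT18 had intronic values of 0.11 and 0.51 against exonic values of 1.16 and 1.02. KRT8 was counted on a long transcript annotated as noncoding (hg19 chr12:53290971-53343650) that reaches into KRT18, so its intronic value is less certain. EPHX1, a detoxifying hydrolase chosen for mention after its values were seen, had an intronic value of −0.04 against −0.72.

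PSF contact within these RNAs was examined in the 4 lists of PSF-CLIP peaks from LNCaP cells, 2 per treatment, in which RNA was crosslinked to protein before immunoprecipitation. Among the 131 genes, 85 (64.9%) and 63 (48.1%) overlapped a peak by at least 1 base in the DHT lists and 82 (62.6%) and 26 (19.8%) in the vehicle lists. Among all tested genes the shares were 43.9%, 27.3%, 45.6% and 11.5%. The median span of the 131 genes was 60.1 kb against 25.8 kb for all tested genes. Their median average log2 CPM in PSF-RIP was 6.75 against 5.25. The part of length and of abundance in these shares was not tested. A peak in all 4 lists was found for 19 of the 131 (14.5%), against 6.54% of tested genes, among them ACSL3, ZBTB16, MAOA, KCNMA1, C1orf21, IDI1, INPP4B, HOMER2, NCAM2 and PITX1.

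Stretches of 20 to 300 bases covered by all 4 lists and outside annotated exons were read from the GRCh37 genome on the strand of the transcript. There were 14 in 8 of the 131 genes, and 3 from genes that rose are shown as examples of the composition. Stretches of other genes that rose are not shown. Capitals mark a run of 14 bases that the first 2 share, CATTCCAGGTAGAG, which no other of the 301 such stretches in tested genes held.
ACSL3, chr2:223735339-223735426, plus strand: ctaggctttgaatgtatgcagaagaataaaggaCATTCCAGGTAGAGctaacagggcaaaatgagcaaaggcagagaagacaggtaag
ZBTB16, chr11:113987755-113987902, plus strand: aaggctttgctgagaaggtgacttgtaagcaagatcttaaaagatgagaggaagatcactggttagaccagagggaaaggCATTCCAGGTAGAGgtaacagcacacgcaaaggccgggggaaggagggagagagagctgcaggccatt
KCNMA1, chr10:79294620-79294732, minus strand: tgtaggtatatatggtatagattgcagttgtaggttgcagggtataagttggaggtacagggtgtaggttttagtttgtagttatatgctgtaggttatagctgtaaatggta

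The run in capitals was taken as the longest match between the ACSL3 and ZBTB16 stretches, so its absence from other stretches is not a test. Each of the 14 stretches held more purines (A and G) than pyrimidines on the transcript strand, from 57.5% to 94.6% with a median of 68.1%. The peak lists carry no strand, so the strand was taken from the gene. The excess is not particular to these genes: of the 301 stretches in 229 tested genes, 288 (95.7%) held over 50% purines, with a median of 66.4%. MAOA, monoamine oxidase A, had 5 of the 14 stretches, and its RNA went from 225 to 434 CPM in LNCaP, from 19.7 to 46.6 in 22Rv1 and from 189 to 498 in LTAD.

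Promoters were searched for the androgen response element, an inverted repeat of the half-site TGTTCT with a spacer of 3 bases (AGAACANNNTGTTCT, which reads the same on both strands), with up to 2 mismatches in its 12 fixed letters. A RefSeq promoter (GRCh38.p14) was found for 107 of the 131 genes, and 1 (0.935%) held a match in the 250 bases upstream of its start, against 1.18% of all 35116 promoters and 0.746% of the 9654 tested genes matched, out of 12868. A single match supports no difference in either direction, and the promoter table has 1 start per gene, which need not be that of the counted transcript. That gene was NFIB, a nuclear factor I that rose by 0.91. Its match is shown in capitals as the only one found, 140 to 126 bases before the start in that table.
NFIB, GRCh38.p14 chr9:14306951-14307005, minus strand: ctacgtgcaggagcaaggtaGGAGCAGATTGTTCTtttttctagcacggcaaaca

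Other gene groups gave no calls for the DHT change in PSF-RIP. Over all tested genes, 20.3% were above 0 in each line and 22.1% below 0. The lists set against these shares were also drawn up with earlier results known. Of 27 hnRNP genes, which package nascent RNA, 16 were above 0 and 3 below 0 in each line, with a median of 0.24. HNRNPF was nearest to the threshold at 0.57 ± 0.10 (edgeR adjusted p = 0.0512). Of 66 spliceosome genes 28 were above 0 and 5 below 0 in each line (median 0.13), and of 30 unfolded protein response genes 12 and 3 (median 0.14). HERPUD1, a gene of protein disposal from the endoplasmic reticulum, had 0.41 ± 0.10 (adjusted p = 0.1). Of 21 RNAs of the mitochondrial genome, 19 were below 0 in each line, with a median of −0.67. MT-ND4L, a subunit of complex I, was nearest to the threshold at −0.62 (adjusted p = 0.0512). In the inputs, 20 of these had medians of −0.26, −0.43 and −0.35 in LNCaP, 22Rv1 and LTAD, against −0.25, −0.62 and −1.05 in PSF-RIP. In the paired fit of the difference from input, MT-ND6 (−0.91) and MT-ND5 (−0.59) were called with a lower change in PSF-RIP. Mitochondrial RNA made up 0.192% to 0.733% of PSF-RIP reads and 8.65% to 18.1% of input reads. Of 75 ribosomal protein genes, 11 were above 0 and 21 below 0 in each line (median −0.07), of 79 nuclear oxidative phosphorylation genes 22 and 10 (0.07), of 27 SR protein and CLK genes 8 and 5 (0.04), of 21 paraspeckle genes 9 and 3 (0.08), of 20 p53 targets 1 and 8 (−0.11), and of 22 nuclear receptor cofactors 12 and 1 (0.17).

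Genes of the cell cycle and the histones had medians of opposite sign in LNCaP and LTAD. The median log2 change of 41 cell cycle genes was 1.11 in LNCaP, 0.20 in 22Rv1 and −0.62 in LTAD, and none was called. Of the 41, 36 were above 0 in LNCaP and below 0 in LTAD. MKI67, the proliferation antigen, shown as an example chosen after its values were seen, went from 21.6 to 166 CPM in LNCaP, from 692 to 715 in 22Rv1 and from 217 to 146 in LTAD. The medians of 41 histone genes were 0.94, 0.51 and −0.60. The inputs gave 1.05, 0.03 and −0.57 for the cell cycle genes. The line difference has no replicate within a line and was not tested.

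**Figure D4:**
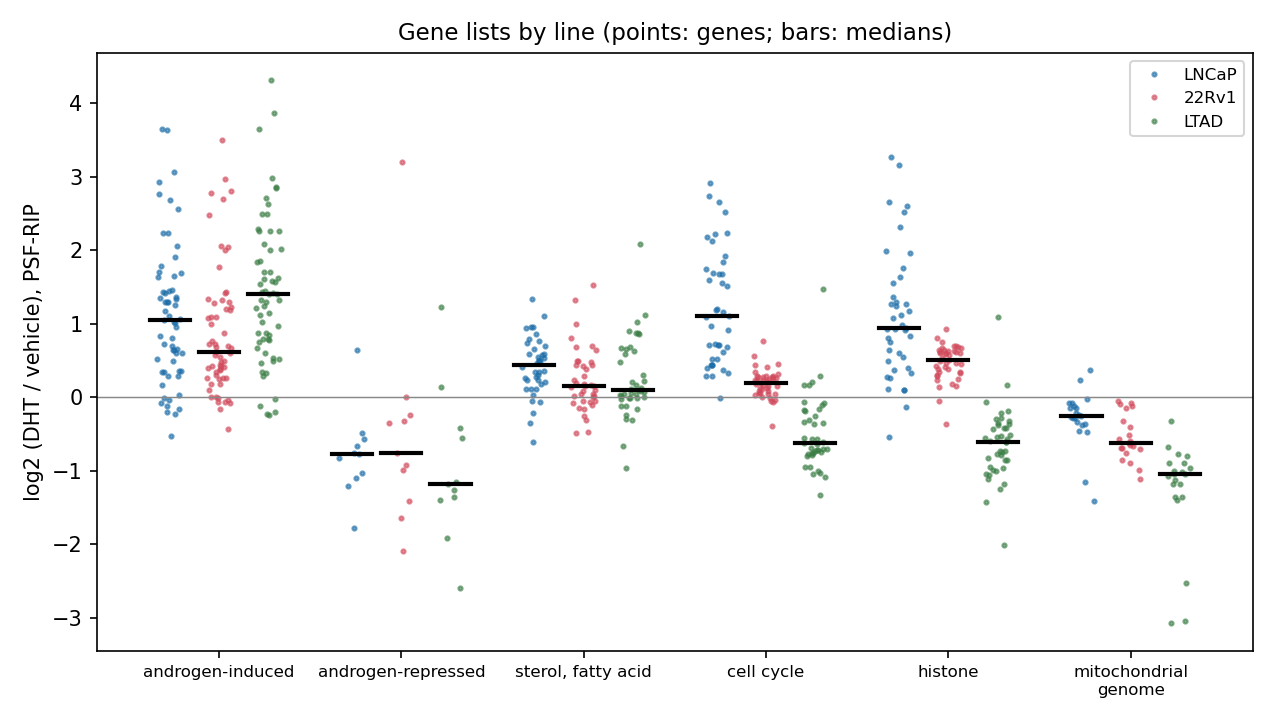
The log2 ratio of DHT to vehicle in PSF-RIP is plotted for each gene of 6 lists, in LNCaP, 22Rv1 and LTAD, with black bars for medians. Androgen-induced genes lie mostly above 0 in each line, while the medians of the cell cycle genes run from 1.11 in LNCaP to −0.62 in LTAD.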

How the data were processed

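RNA was measured in 6 PSF-RIP and 6 input libraries. The deposited values are raw counts, per the file headers, of unique reads assigned to RefSeq transcripts, introns and antisense intervals of hg19. Features with no read are not listed and were taken as 0. Per the submitters' processing notes, TopHat2 2.1.0, Bowtie2 2.2.6 and Bowtie were used, with no role given. PSF-CLIP peaks carry a score deposited by the authors, in lists made per library, which was not used here. How they were called is not stated in the labels or headers. Peak starts were read as 0-based, as in BED files.

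The files held 48606 transcripts of 20294 symbols. Counts of the gene class were used, with 1 transcript per symbol, that with the highest mean count, and 20239 genes remained after 55 duplicates at 1 locus were dropped. Per-line ratios and levels use TMM-scaled totals, ratios with a prior count of 2. The model had terms for line and treatment in edgeR 4.0.16 (R 4.3.3, quasi-likelihood test, default expression filter, Benjamini-Hochberg adjustment at 0.05 over all tested genes). The line block follows from the labels, which give 1 pair per line. The difference from input used line by assay blocks, treatment and their interaction, and its intervals use 11.8 degrees of freedom. In counts simulated with the same design, the PSF-RIP fit recovered 92.0% of changes of 1 on the log2 scale, the intron fit 81.0% and the interaction 42.0%. The simulation gave all genes the same spread and each changed gene an equal change in all 3 lines. Genes with low mean counts were not among those changed. Recovery of changes that differ between lines was not tested. DESeq2 1.42.0, RLE scaling, no filter, the longest transcripts, thinned counts, a length correction, no block and leaving out each line were tried as alternatives. Depth sets the precision of low genes, and exact intervals (95%, Clopper-Pearson) and floors of 3 reads cover counting error only, since reads without molecular identifiers are not independent molecules. Stretches on chromosome 8 were left out.

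The genes described and the gene lists were chosen with earlier results of these data known. Named genes are SFPQ, NONO, PSPC1, KLK3, NEAT1 and MALAT1, the 15 highest and 15 lowest log2 changes among called genes at or above the median average count with the same sign in all lines, called members of the androgen and lipid lists, and the members of other lists with the smallest p. A further LNCaP set of 4 samples with unclear labels was not analysed here, and 12 columns of its tables were not used.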

Additional observations from a re-analysis of the deposited data

Results flagged for a closer look

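The median DHT change of the cell cycle genes in PSF-RIP was 1.11 in LNCaP and −0.62 in LTAD, a difference of 1.73 on the log2 scale. It is listed because the medians lay more than 0.5 from 0 in opposite directions in these lines under the same treatment. The inputs had 1.05 and −0.57. With 1 pair of libraries per line, the difference between the lines was not tested. The median of the replication-dependent histone genes was 0.94 in LNCaP and −0.60 in LTAD, a difference of 1.54, with 1.42 and −1.05 in the inputs, and this too was not tested.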

How the results depend on the processing

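The number of called genes was 132 (131 with the same sign in all lines). It was 270 (267) with DESeq2, 528 (456) with no expression filter, 200 with counts thinned to the input totals and 0 (0) with no replicate block. The first 3 of these shared 128, 132 and 111 genes with the 132. Leaving out a line gave 173 to 480 called genes and 163 to 456 with the same sign. RLE scaling, the longest transcripts, the length correction, thinning to the smallest library and the input libraries stayed within 1.5 times. The causes of these shifts were not tested. For the difference between PSF-RIP and input, where 0 genes were called, the replicate block of line by treatment called 11 and leaving out a line 0. Intronic calls numbered 63, 279 with no filter, 0 with no replicate block and 18 to 283 without 1 line. Of the 131 genes, 64 were called in all 10 alternatives that kept the PSF-RIP libraries and the block. None of the 131 genes changed sign in any alternative that was run. Among genes not called, the inputs gave the opposite sign for SFPQ (−0.041), NONO (−0.042), PSPC1 (−0.19), DHX38 (−0.012), HIST1H2BN (−0.18), RPS4X (−0.11) and TRA2B (−0.031), and MALAT1 ranged from −0.14 to 0.018 (without 22Rv1) when a line was left out. With 1 library per line and treatment, a response of a single line cannot be told apart from a fault in 1 library.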

Other observations

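The called genes not yet described, chosen here after their values were seen, include pairs of neighbours. Of the 131 genes, 8 pairs lay within 500 kb of each other, and 7 of the pairs moved the same way. MAP7D1, a microtubule-binding protein, and THRAP3, a splicing and transcription factor, rose by 1.04 and 0.70 and lie 43.6 kb apart on 1 strand with no tested gene starting between them. DCXR, a sugar reductase, rose by 0.83 and lies 40.6 kb from FASN, with 3 tested genes starting between them. NDRG1, which rose by 2.19, and ST3GAL1, which fell by 1.11, were the pair with opposite signs, at a distance of 158 kb.

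Other called genes that rose include GCNT1, which starts core 2 O-glycan branches (0.99), PER1, a clock gene (1.08), RARB, a retinoic acid receptor (1.96), SOCS2, an inhibitor of cytokine signalling (2.21), ERRFI1, an inhibitor of the EGF receptor (1.54), MPC2, a mitochondrial pyruvate carrier subunit (1.10), and KDM4B, a histone demethylase (0.77). OCLN, a tight junction protein, and EPHA1, an ephrin receptor, had −0.86 and −0.93. Of the genes called with the same sign in all lines of the inputs, 58 were not called in PSF-RIP; all 58 were tested there, and 53 had the sign of the input change in each line.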
